A study of Rattus norvegicus with 6 samples.

Results

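The genes described here encode the proteins of the cytosolic ribosome. They were taken by symbol, as every probe whose gene name starts with Rpl or Rps followed by a digit, or is Rpsa or Rplp0 to Rplp2, with the Rps6k kinases left out. That gave 67 probes for 67 genes, of 22517 probes in all. By name 38 belong to the large subunit and 23 to the small subunit, 5 are paralogues of subunit proteins (Rpl3l, Rpl7l1, Rpl22l1, Rpl36al1 and Rpl37l1), and 1, Rps19bp1, is no ribosomal protein but binds Rps19.

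RNA came from the tissue in uncoated cellulose implants, placed subcutaneously in 10-week-old Sprague-Dawley rats. There were 6 rats, each measured on 1 Illumina array. Rats 1, 2 and 3 were sampled 1 day (24 hours) after implantation and rats 4, 6 and 7 after 3 days (72 hours). Both groups carried the same implant, so the comparison is between times and not with intact skin. The comparison follows early growth of granulation tissue, the cell-rich tissue that fills wounds and implants.

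Ribosomal proteins fold onto ribosomal RNA in the nucleolus, and the finished subunits translate mRNA in the cytoplasm. Most are needed in equal numbers, and cells raise their output when they grow and divide. Their mRNAs are abundant, short and typically start with a terminal oligopyrimidine (TOP) tract, a C followed by an unbroken run of C and T, through which the growth-sensing kinase mTOR controls their translation.

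Runs of C and T can be seen at or near many of the gene starts. The lines below give 30 bases around the start annotated by RefSeq in build GRCr8, 12 before it and 18 from it on, on the gene's strand. Capitals mark a single unbroken run of C and T per gene, where one was found within 10 bases of the start. Other such runs are left in lower case, as in Rpl23 and Rps27. A marked run need not be a TOP tract. The annotated first base is a C within the run in Rpl31, Rps15, Rps27, Rpl39 and Rplp0. In Rpl23 the run begins after that base, and in Rps23 that base is a T. The first 6 genes rose from day 1 to day 3, Rps23 and Rplp0 did not, and Rpl22l1 is a paralogue, so that the start of risers and of other members can be set side by side.
Rpl31: caatccctcgcgCCTTTCCTTTCCaacttg
Rps15: tgacaccgCTTCCTTTTCCCagcagccgcc
Rps27: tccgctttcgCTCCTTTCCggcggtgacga
Rpl39: tctaatcgcgTTCTTCCggcctgtcctttc
Rpl23: aacttcctttctgaCTCTTTCCggacgctc
Rps3: ctttcagcggcgcgcggcagcaagatggcg
Rps23: gtccttcctgCCTCTCTTCTCTCTTTCTCT
Rplp0: cgcaccgcaCTTCTCTCgccaggcgtcctc
Rpl22l1: ccgtggatatccggttccgagttgcgcagc
The stretches lie at chr9:49143099-49143128 on the plus strand (Rpl31), chr7:10068098-10068127 on the minus strand (Rps15), chr2:177964589-177964618 on the minus strand (Rps27), chrX:121195879-121195908 on the minus strand (Rpl39) and chr10:83272167-83272196 on the minus strand (Rpl23). Rps3 lies at chr1:163195759-163195788 on the minus strand, Rps23 at chr2:23814505-23814534 on the plus strand, Rplp0 at chr12:46718373-46718402 on the minus strand and Rpl22l1 at chr2:113683184-113683213 on the plus strand. Each stretch spans the annotated start and holds promoter and the first transcribed bases.

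Of the 67 genes 55 had a start in the RefSeq table. The annotated first base was a C followed by at least 4 pyrimidines on the gene's strand in 21 of the 55 (38.2%), against 2.63% of all 33469 starts in the table. A C followed by at least 4 pyrimidines lay within 10 bases of the annotated start, on either side, in 40 of 55 (72.7%), against 28.9% of all starts. The whole run could begin farther upstream, as in Rpl5, where it began at position -14 and ended before the start. Among members with a start in the table such a C was there in 8 of 9 that rose and in 29 of 42 that were tested and did not pass. Rpl30, Rpl37l1, Rps29, Rpl8 and Rps20, which also rose, had no start in the table. The hexamer CCGGAA, the core of ETS factor sites, was found on either strand of the 300 bases around the start in 29 of 55 members (52.7%), against 14.95% of all starts. AAGATGG, whose other strand holds the core of YY1 sites, was found on either strand in 8 of 55 (14.5%) against 7.01%. The 2 can run into each other, since CCGGAA ends and AAGATGG begins with AA. These are matches of letters and not measured binding sites. Of all other protein-coding genes 17.6% held CCGGAA and 7.27% AAGATGG. Of 13 other genes whose mRNAs are known to carry a TOP tract, 7 (53.8%) held CCGGAA and 3 (23.1%) AAGATGG. In 10 of these 13 (76.9%) a C followed by at least 4 pyrimidines lay within 10 bases of the start, and in 0 at the first base.

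On the arrays 63 of the 67 probes were kept for testing, since they exceeded the background limit (an intensity of 101) on at least 3 of 6 arrays. All but 1 of the 63 were above it on all 6 arrays; Rps19 was above it on 1 day 1 array and 2 day 3 arrays. The probes of Rpl11, Rpl12, Rpl34 and Rpl36a were below it everywhere, with intensities from 78.8 to 98.2, near the background mode of 86.0. No level of these 4 genes can be read here, and a probe without signal does not show that the mRNA was missing. The family includes some of the brightest probes of the array: 40 of 63 had a mean intensity of 10000 or more, and 15 had 30000 or more, where the highest value of any probe was 45354. A single probe's brightness depends on its sequence, so levels are not compared between genes.

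The family as a whole was higher at day 3. The median difference of its 63 probes, day 3 minus day 1 on the log2 scale of intensity, was 0.32, with a middle range (25th to 75th percentile) of 0.12 to 0.42. Over all 12181 kept probes the median was -0.01, with a middle range of -0.22 to 0.23. The difference was positive in 56 members and negative in 7. In 40 of 63 members (63.5%) the 3 day 3 arrays all lay above the 3 day 1 arrays, against a background of 21.8% of all kept probes. The reverse was seen in 1 member, Rpl15, against a background of 17.9%.

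In the test of each probe (limma's moderated test, with Benjamini-Hochberg adjustment across every kept probe) 14 members rose and 0 fell at an adjusted p of 0.05. This is 22.2% of the 63, where 12.5% of all kept probes rose and 9.9% fell. Another 17 members, all with positive differences, had adjusted p between 0.05 and 0.1. The count of calls depended on single rats. With 1 day 1 rat left out it was 8 (rat 1), 3 (rat 2) or 16 (rat 3), and with 1 day 3 rat left out 5 (rat 4), 2 (rat 6) or 3 (rat 7). As a share of the members that was 12.7%, 4.76%, 25.4%, 7.94%, 3.17% and 4.76%, against 9.49%, 6.56%, 16.04%, 9.58%, 6.38% and 7.18% of all kept probes in the same refits. The share of calls was therefore above the background without rat 1 or 3 and below it without rat 2, 4, 6 or 7. The median difference of the members stayed between 0.29 and 0.32 in these refits. It was 0.20 with cyclic loess normalisation in place of quantiles, where 8 members rose, 12.7% against 11.8% of all kept probes. With a plain test per probe 4 rose, 6.35% against 5.54%, so that in both settings the share of calls was near the background. With array weights 28 rose, 44.4% against 17.2%.

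**Figure D1:**
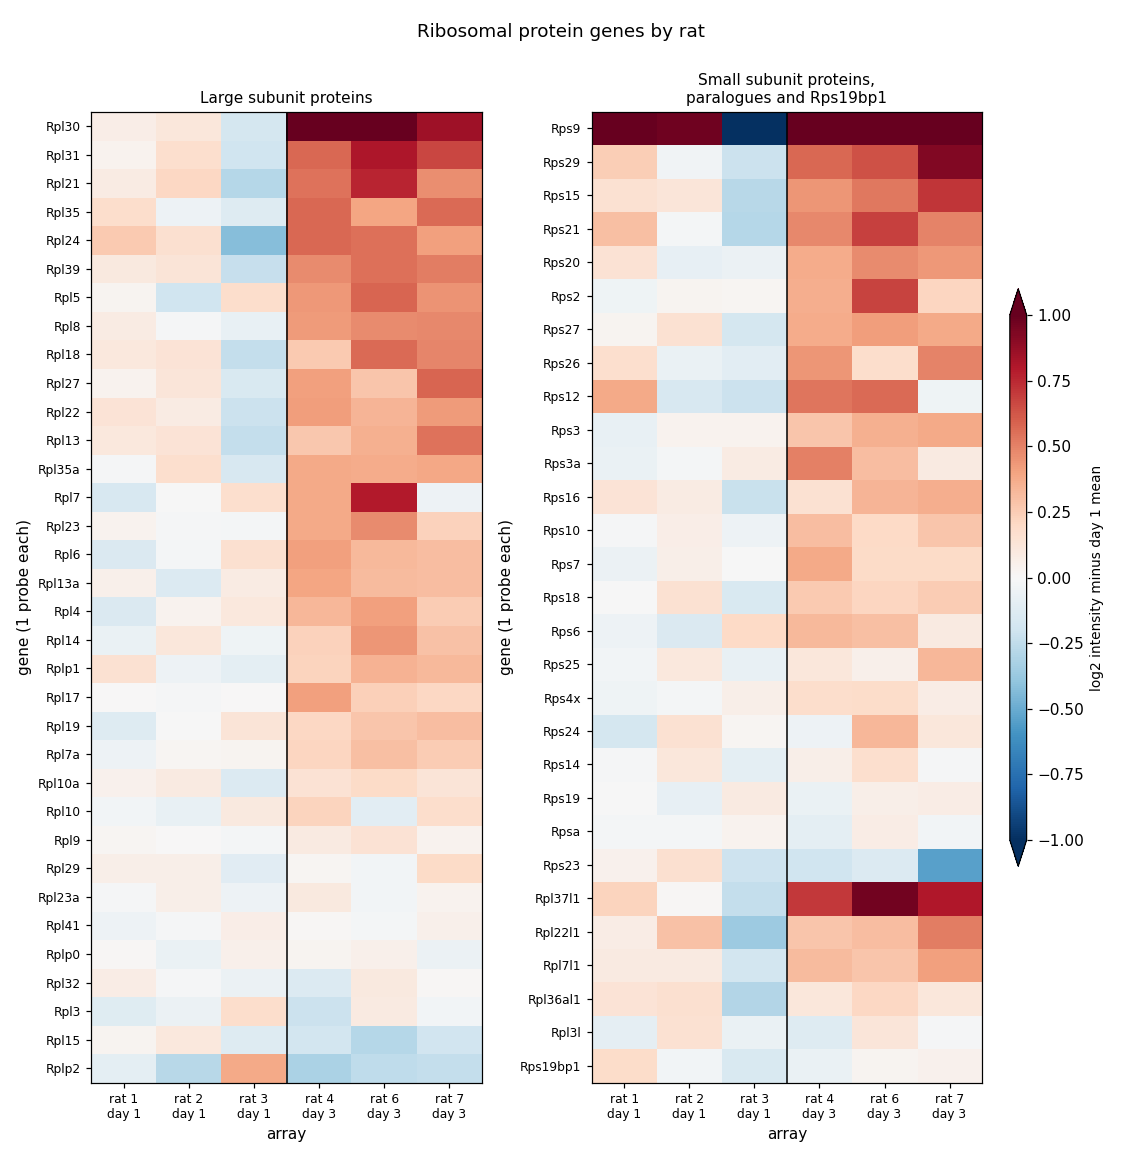
Each row is 1 gene and each column 1 array. The colour is the log2 intensity minus the gene's mean over the 3 day 1 arrays, and colours saturate at -1 and 1. In 40 of the 63 genes all day 3 columns are higher than all day 1 columns. Rps9 stands apart through a low value in rat 3.

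The shift was seen in every day 3 rat. Against the day 1 mean of each gene, the median member was higher by 0.31 in rat 4, by 0.31 in rat 6 and by 0.28 in rat 7. Rats 1, 2 and 3, which make up that day 1 mean and so lie around 0 by construction, had 0.03, 0.03 and -0.07. Summed over all 67 probes, the family held 5.57% of all intensity on the array of rat 1, 5.63% in rat 2 and 5.37% in rat 3, against 6.49% in rat 4, 6.58% in rat 6 and 6.55% in rat 7, so the days did not overlap. Within day 1, rat 3 was lowest in 38 of the 63 members, rat 1 in 15 and rat 2 in 9. Members varied little between rats of a day, with a median residual SD of 0.13, against 0.17 over all kept probes.

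Both subunits shared the shift. Of 34 tested large subunit genes 8 rose (23.5%) and 0 fell, with a median difference of 0.33. Of 23 small subunit genes 5 rose (21.7%) and 0 fell, with a median of 0.28. Of all kept probes 12.5% rose and 9.9% fell. Among the 5 paralogues 1 rose, with a median of 0.33. The difference between the subunits was not tested.

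Rpl30 rose most among the members that passed. It encodes a large subunit protein that is also known in mammals to bind the RNA element that directs selenocysteine insertion. Its log2 intensities were 11.56, 11.61 and 11.32 in rats 1, 2 and 3 and 12.55, 12.52 and 12.35 in rats 4, 6 and 7. The days lay far apart for the spread within them. The mean went from 11.50 ± 0.16 to 12.47 ± 0.11 (SD, n = 3 rats per day), a difference of 0.98 (SE 0.12, 1.97-fold, limma adjusted p = 0.00324). The 95% interval ran from 0.69 to 1.26. Rpl30 passed under each of the 15 alternative settings. These include the 6 refits that left out 1 rat, where its highest limma adjusted p was 0.0205.

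Rpl37l1, a paralogue of the large subunit protein Rpl37, came next. Its levels were 10.81, 10.60 and 10.35 at day 1 and 11.29, 11.55 and 11.39 at day 3 (log2 intensity). All day 3 rats were above all day 1 rats. The difference was 0.82 (SE 0.14, 1.77-fold, limma adjusted p = 0.0103), and it too passed in all 6 refits, with a highest adjusted p of 0.0470 without rat 6. Rpl31, a protein of the large subunit's outer face near the exit of the peptide tunnel, was measured at 10.63, 10.77 and 10.40 at day 1 and 11.18, 11.41 and 11.27 at day 3. It rose by 0.68 (SE 0.13, 1.61-fold, limma adjusted p = 0.0128) and passed in 5 of 6 refits, with 0.0568 without rat 6.

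A further 5 large subunit genes rose by 0.36 to 0.59. Rpl35 sits at the exit of the peptide tunnel and rose by 0.51 (SE 0.12, 1.43-fold), and Rpl39, which lines the tunnel, rose by 0.51 (SE 0.12, 1.42-fold). Rpl39 had 14.05, 14.09 and 13.73 at day 1 and 14.43, 14.51 and 14.47 at day 3, so that rat 3 was lowest and the day 3 rats lay close together. Rpl8, which reaches near the peptidyl transferase centre where amino acids are joined, went from 13.99 ± 0.08 to 14.45 ± 0.03 (SD, n = 3 rats per day), a rise of 0.46 (SE 0.09). Rpl23, at the interface between the subunits, rose by 0.36 (SE 0.10, 1.28-fold), and Rpl21 rose by 0.59 (SE 0.16, 1.51-fold). The limma adjusted p of these 5 genes ran from 0.0150 (Rpl8) to 0.0437 (Rpl23). Of 6 refits Rpl8 passed in 3, Rpl35 in 2, Rpl21 and Rpl39 in 1 and Rpl23 in 0, with highest values of 0.0654 (Rpl8, without rat 6), 0.0856 (Rpl35, without rat 2), 0.135 (Rpl21, without rat 6), 0.101 (Rpl39, without rat 6) and 0.156 (Rpl23, without rat 6).

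Rpl5, which brings the smallest ribosomal RNA into the large subunit together with Rpl11 and in that complex can bind the p53 regulator Mdm2, had a much dimmer probe. Its levels were 8.52, 8.29 and 8.66 at day 1 and 8.92, 9.07 and 8.94 at day 3. Here rat 3 was the highest of day 1, unlike in most members, and the days did not overlap. It rose by 0.49 (SE 0.12, 1.40-fold, limma adjusted p = 0.0330) and passed in 1 of 6 refits, with 0.122 without rat 6. Its partner Rpl11 could not be read.

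Of the small subunit, Rps29, a small zinc-binding protein, rose most among those that passed. Its levels were 13.55, 13.26 and 13.09 at day 1 and 13.87, 13.94 and 14.23 at day 3. The gap between the days was smaller than the range within day 1, although they did not overlap. It rose by 0.71 (SE 0.16, 1.64-fold, limma adjusted p = 0.0223) and passed in 3 of 6 refits, with 0.0789 without rat 2. Rps15, which takes part in the late maturation of the small subunit, had 14.10, 14.06 and 13.67 at day 1 and 14.39, 14.47 and 14.66 at day 3. Rps15 rose by 0.56 (SE 0.15, 1.48-fold, limma adjusted p = 0.0383; 0.123 without rat 7).

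Rps20, in the head of the small subunit, rose by 0.43 (SE 0.10, 1.34-fold). Rps27, another zinc-binding protein, rose by 0.39 (SE 0.11, 1.31-fold), and Rps3, which lines the channel where mRNA enters, rose by 0.34 (SE 0.09, 1.26-fold). Their limma adjusted p was 0.0276, 0.0491 and 0.0392, and none passed in more than 2 of 6 refits. The highest values were 0.106 for Rps20, 0.152 for Rps27 and 0.132 for Rps3, each without rat 6. The rises of the 14 members therefore ran from 1.26-fold to 1.97-fold, and none reached a doubling.

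**Figure D2:**
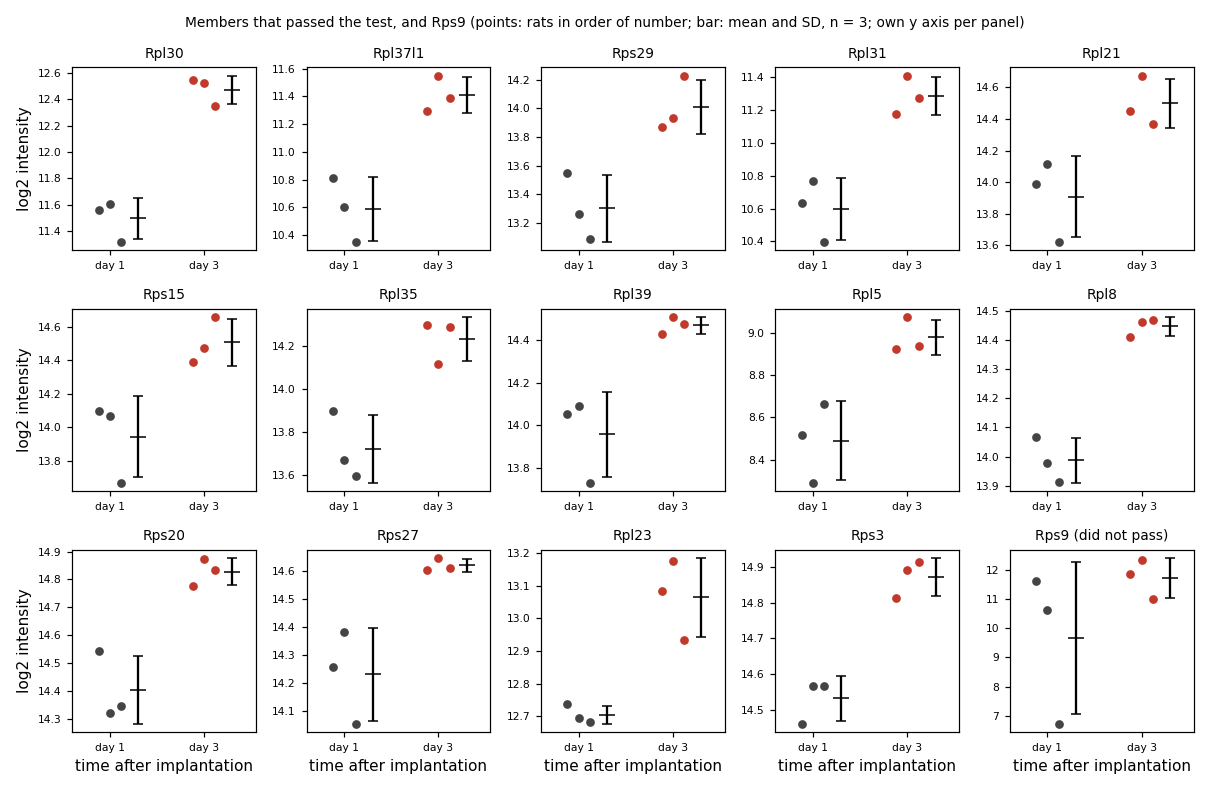
Log2 intensity of the 14 members that passed the test, ordered by their difference, and of Rps9, which did not. Points are single rats in order of their number, and bars are the mean and SD of 3 rats; each panel has its own y axis. In each of the 14 all day 3 points lie above all day 1 points, while the day 1 points of Rps9 run from 6.73 to 11.62.

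Rps9, a small subunit protein at the mRNA entry that takes part in decoding accuracy, had the largest difference of the family but did not pass. Its levels were 11.62, 10.63 and 6.73 in rats 1, 2 and 3 and 11.85, 12.32 and 10.98 in rats 4, 6 and 7. Rat 3 was close to background, which ended at 6.42 on this scale, and rat 1 was above rat 7, so the days overlapped. The difference was 2.06 (SE 1.20, 95% interval -0.80 to 4.92, limma adjusted p = 0.287) and 0.59 without rat 3 (limma adjusted p = 0.346). No other tested member spread as widely within a day.

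A few members had negative differences, and none of them passed. Rps23, a small subunit protein of the decoding centre, had 12.43, 12.55 and 12.18 at day 1 and 12.19, 12.26 and 11.85 at day 3, a difference of -0.29 (SE 0.15, limma adjusted p = 0.238). Its days overlapped. Rpl15, a protein of the large subunit core, had 8.63, 8.71 and 8.47 at day 1 and 8.42, 8.32 and 8.41 at day 3. All its day 3 values were below all day 1 values, with a difference of -0.22 (SE 0.10, limma adjusted p = 0.177, 95% interval -0.46 to 0.02).

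The stalk of the large subunit, which recruits elongation factors, is built from Rplp0, Rplp1 and Rplp2. Rplp0, its base and a common reference gene, was flat in these values, with 15.24 ± 0.06 at both days (SD, n = 3 rats per day), a difference of 0.01 and a 95% interval of -0.21 to 0.22. Under cyclic loess normalisation its difference was -0.14. Rplp1 had a difference of 0.30 (SE 0.11, limma adjusted p = 0.0898) and its days did not overlap. Rplp2 had 7.22, 7.04 and 7.70 at day 1 and 7.00, 7.06 and 7.08 at day 3, with a difference of -0.27 (SE 0.17, limma adjusted p = 0.338); its highest value was in rat 3. The probe of Rplp2, with a mean intensity of 163, was among the dim ones.

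Differences were smaller among the brightest and the dimmest members than between them. Among the 15 with a mean intensity of 30000 or more 0 rose and 0 fell, and their median difference was 0.09. The 44 other probes of that brightness had a median of -0.05, and 3 of them rose. Among the 25 between 10000 and 30000, 9 rose, the days were apart upward in 23, and the median was 0.38. The 294 other probes of that range had a median of 0.06, with 59 that rose, and 32.7% apart upward. In the 14 members between 1000 and 10000 the median was 0.38 with 4 that rose (28.6%), against 0.02 and 18.4% in the 2685 other probes of that range. In the 9 kept members under 1000 the median was 0.02 with 1 that rose (11.1%), about the share of the 9095 other probes there (10.49%, median -0.01). The 5 brightest, Rplp0, Rpl3, Rpl23a, Rpl6 and Rpl9, had levels from 14.85 to 15.43 on single arrays, close to the highest value of any probe, 15.47. Rpl3, near the peptidyl transferase centre, had a difference of -0.05 (95% interval -0.36 to 0.25). Rpl23a, at the tunnel exit, had 0.04 (-0.18 to 0.25) and Rpl9 had 0.09 (-0.12 to 0.30). Rpl6 had 0.35 (0.09 to 0.61) with all day 3 rats above all day 1 rats, and a limma adjusted p of 0.0652. Rpsa, a small subunit protein also known as the laminin receptor and of similar brightness, had -0.02 (-0.24 to 0.20). Whether closeness to the top of the signal range had a part in these small differences was not tested.

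**Figure D3:**
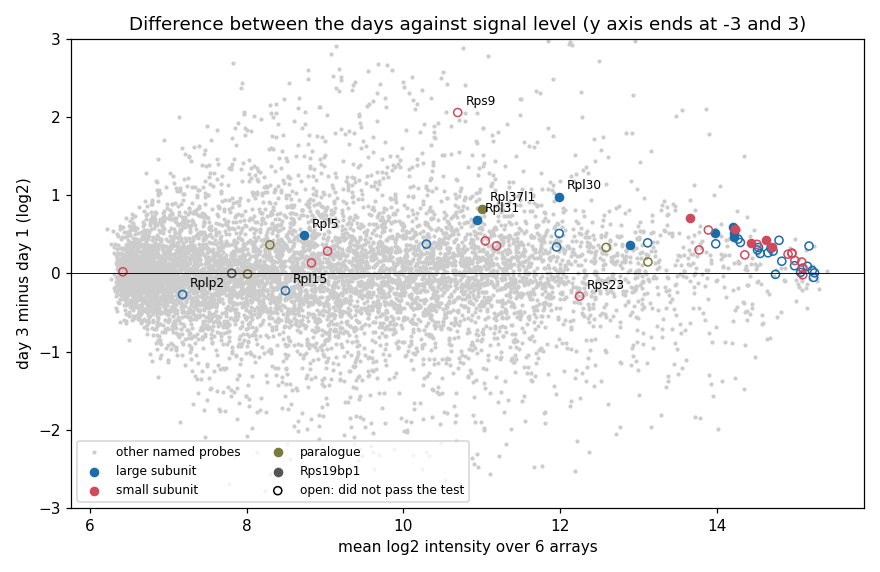
The y axis is the day 3 minus day 1 difference (log2) and the x axis the mean log2 intensity over the 6 arrays. Grey points are other named probes, filled points are members that passed the test and open points members that did not. Members between 13 and 15 on the x axis lie mostly above 0, and most of those beyond 15 lie close to 0, with Rpl6 at 0.35 an exception.

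The paralogues did not all follow Rpl37l1. Rpl22l1, a paralogue of Rpl22, had 8.19, 8.41 and 7.75 at day 1 and 8.39, 8.42 and 8.63 at day 3, a difference of 0.37 (SE 0.18, limma adjusted p = 0.207), with overlap. Rpl22 itself, named after its values were seen, had 0.40 (SE 0.12, limma adjusted p = 0.0584). Rpl7l1 had 0.33 (SE 0.11, limma adjusted p = 0.0828) with the days apart, and Rpl36al1 had 0.15 (SE 0.14). Rpl3l, the paralogue of Rpl3 known from striated muscle, had -0.01 (SE 0.12), with 8.02 ± 0.14 at day 1 and 8.01 ± 0.12 at day 3 (SD, n = 3 rats per day). Rps19bp1, which binds Rps19, had 0.00 (95% interval -0.27 to 0.27). Ribosomal protein genes have many near-identical processed copies in rodent genomes, and the probe sequences were not used here, so a signal may include transcripts of such copies.

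Other mRNAs known to carry a TOP tract had differences in both directions, and those that passed the test all rose. Of 15 tested, 4 rose (26.7%, against 12.5% of all kept probes), with a median of 0.19. In the refits that left out 1 rat 2 to 3 rose. The difference was positive in 9 and negative in 6. All day 3 arrays lay above all day 1 arrays in 6 (40%, against 21.8% of all kept probes). The reverse held in 3, Nap1l1 (-0.38), Tpt1 (-0.10) and Eif3k (-0.04), against a background of 17.9%. The difference from the ribosomal protein family was not tested. Eef1d, a subunit of the exchange factor for elongation factor 1, had 12.71, 12.89 and 12.97 at day 1 and 13.60, 13.66 and 14.10 at day 3, and rose by 0.93 (SE 0.16, limma adjusted p = 0.00952). Eef2, which moves the ribosome along the mRNA, had 13.95, 13.98 and 14.06 at day 1 and 14.48, 14.54 and 14.63 at day 3, and rose by 0.55 (SE 0.09, limma adjusted p = 0.00907). Both passed in all 6 refits. Eef1b2, another subunit of the exchange factor, rose by 0.40 (SE 0.10; 0.0923 without rat 2), and so did Eif3h, an initiation factor subunit named after its values were seen, by 0.38 (SE 0.11).

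Few genes of the machinery that builds ribosomes passed the test. Of 60 ribosome assembly factors 3 rose and 4 fell, where 12.5% and 9.9% of all kept probes did, with a median of 0.03; the refits gave 0 to 3 that rose and 0 to 8 that fell. Fbl, the methyltransferase fibrillarin, rose by 0.63 (SE 0.18; 0.143 without rat 7), Nolc1, a nucleolar phosphoprotein, by 0.60 (SE 0.16; 0.127 without rat 2) and Wdr75, a factor for ribosomal RNA transcription and processing, by 0.36 (SE 0.10; 0.124 without rat 6). The helicase Ddx52 fell by 1.09 (SE 0.22; 0.0622 without rat 2), Sbds, which readies the large subunit for joining, by 0.61 (SE 0.16; 0.113 without rat 2), and the helicase Ddx10 by 0.51 (SE 0.14; 0.150 without rat 6). The fourth to fall was Imp3, a protein of the small subunit processome, by 0.49 (SE 0.11), named after its values were seen. Of 19 genes of RNA polymerases I and III and their factors 2 rose and 0 fell (median 0.07; 0 to 3 and 0 to 2 in the refits), namely Gtf3c1 by 0.48 (SE 0.11; 0.0918 without rat 6) and Polr3e by 0.46 (SE 0.11; 0.0873 without rat 6).

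Of 33 mTOR and MYC regulators 1 rose (3.03%) and 2 fell, where 12.5% and 9.9% of all kept probes did. Their median was -0.11, and the refits gave 1 to 4 that rose and 0 to 8 that fell. Mxd3, a MAX partner that opposes MYC and is known from dividing cells, had 7.80, 7.17 and 6.90 at day 1 and 9.11, 9.40 and 9.89 at day 3, and rose by 2.17 (SE 0.28, limma adjusted p = 0.00409). Mxd1, a MAX partner known from differentiating cells, fell by 2.23 (SE 0.54; 0.0972 without rat 2), and Max itself by 0.63 (SE 0.13; 0.0737 without rat 2). Of 15 chaperones and quality control factors of ribosomal proteins 1 rose (6.67%) and 1 fell, with a median of -0.02 (0 to 1 in each direction in the refits). Ipo4, an importin, rose by 0.42 (SE 0.10; 0.0956 without rat 7), and Mdm2, the p53 regulator that free ribosomal proteins can bind, fell by 0.75 (SE 0.14; 0.0501 without rat 2). The 16 genes of these 5 lists named under the rule were taken because they passed, with limma's adjusted p between 0.00409 (Mxd3) and 0.0451 (Fbl).

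Mitochondrial ribosomal protein genes, which encode the separate ribosome of that organelle, were compared as the most similar family. Of 56 tested 3 rose and 0 fell (1 to 11 and 0 to 1 in the refits), 5.36% against 12.5% of all kept probes, with a median of 0.09. They were Mrpl23 (1.21, SE 0.14), Mrpl51 (0.43, SE 0.11) and Mrps33 (0.40, SE 0.09), named after their values were seen. The 11 that rose here, and the 8 that fell among assembly factors and among mTOR and MYC regulators, were the counts without rat 3. In that refit 16.04% of all kept probes rose and 15.15% fell. Against these shares 11 of 56 mitochondrial genes and 8 of 33 mTOR and MYC regulators were above, and 8 of 60 assembly factors below. The difference between the families was not tested.

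**Figure D4:**
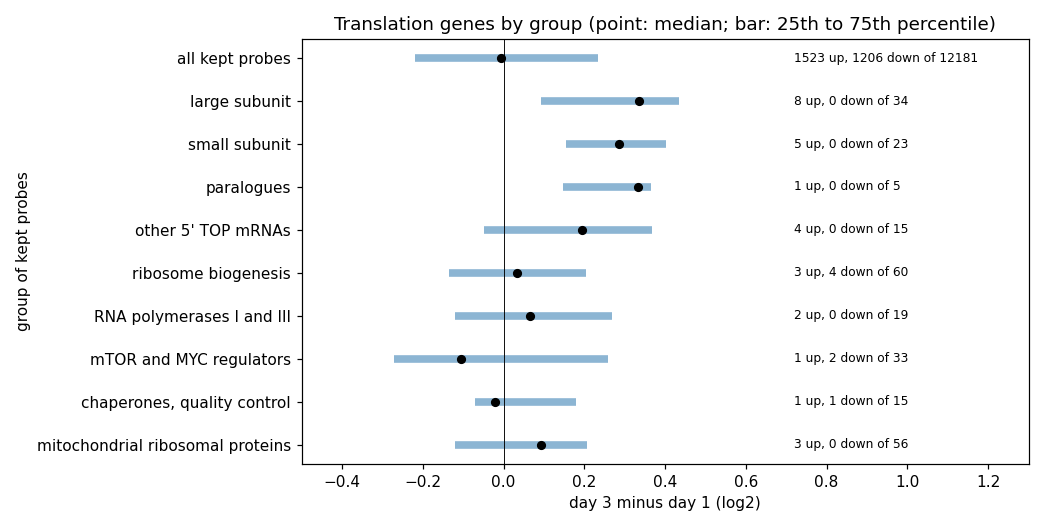
Day 3 minus day 1 (log2) for each group of tested probes, with the median as a point and the 25th to 75th percentile over probes as a bar, and the numbers that rose and fell at the right. The large subunit, small subunit and paralogue medians are 0.33, 0.28 and 0.33, and the median of all kept probes is -0.01.

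Cell markers moved between the same arrays, on which 12.5% of all kept probes rose and 9.9% fell. Summed intensity of 16 fibroblast markers ran from 43189 to 52495 at day 1 and from 130505 to 148815 at day 3, and 13 of 15 tested rose. That of 31 cell cycle genes ran from 19473 to 26606 and from 42038 to 52488, and 24 of 30 rose. That of 20 neutrophil markers ran from 63593 to 100037 and from 42636 to 46764, and 12 of 16 fell. The summed intensity of 10 macrophage markers overlapped between the days, from 19923 to 27784 and from 19215 to 30902, but single markers moved in opposite directions: of 9 tested, 4 rose (C1qa, C1qb, C1qc and Cd163) and 1 fell (Cd14). Adipocyte markers summed to 247063 in rat 3, against 46177 to 73665 in the other 5 rats, and 0 of 15 rose and 2 fell; rat 3 was also the lowest of its day in most ribosomal members. Muscle markers summed to 21572 to 23911 in rats 2, 3 and 6 and to 5106 to 6910 in rats 1, 4 and 7, and 0 of 13 rose and 1 fell. Of the fibroblast, cell cycle, macrophage and adipocyte lists 1 marker each, and of the neutrophil and muscle lists 2 each, were below background on all 6 arrays. In bulk tissue a change in the share of a cell type and a change in mRNA per cell cannot be told apart, and the part of these markers in the ribosomal differences was not tested.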

How the data were processed

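RNA of 6 rats was hybridised to 1 Illumina array each, from 100 ng of total RNA per the labels. The values are intensities on the linear scale that the authors deposited after quantile normalisation; limma is named in the submitters' processing notes, and the background setting is not given in the sources used here. Another table, not normalised and with 12 value columns whose names match no sample label, was not used here. Intensities were corrected with normexp (offset 50), quantile normalised and taken to log2. Background was modelled as a normal curve at the mode of the log2 intensities with the spread below it, and its 95th percentile served as limit. Probes above it on at least 3 of 6 arrays, 12181 of 22517, were tested with limma 3.58.1 (R 4.3.3; lmFit, eBayes, two-sided, Benjamini and Hochberg adjustment over all of them). Each array is a different rat; precision is limited by how few there are.

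Genes were named from the platform annotation, and 13787 probes carried a symbol. Of the 67 member genes 66 were found in the RefSeq table (GRCr8), with unchanged symbols, and 55 had a start sequence there. The symbol of the remaining gene could not be checked. The members and lists were chosen with earlier results of these data known, so no list was tested as a set. Genes named are the members past the threshold, the 5 largest differences in each direction, the 5 brightest, paralogues, Rps19bp1, Rpsa and the stalk proteins, and up to 3 members per direction of 5 lists of translation genes. The fit was tested on simulated data.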

Additional observations from a re-analysis of the deposited data

How the results depend on the processing

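No paired analysis was possible because the rats of the 2 days carry different numbers. The 14 members that rose had positive differences under all 15 alternatives. The number of members that rose was 8 with cyclic loess (12.7% against 11.8% of all kept probes), 28 with array weights (44.4% against 17.2%; 1 member, Rpl15, was called lower) and 4 with a plain test per probe (6.35% against 5.54%), and it ran from 2 to 16 when 1 rat was left out. It was 11 with normexp offset 16 (17.5% against 12.2% of all kept probes) and 17 without background correction (27.0% against 12.4%). With no filter it was 14, which is 20.9% of 67 members against 6.47% of all 22517 probes. The family median of 0.32 was 0.20 with cyclic loess and ran from 0.29 to 0.32 without 1 rat, and the number of all probes past the test was 1051 with the plain test, 4051 with array weights and 1316 to 3799 without 1 rat. With the 15 members of 30000 or more left out, an alternative chosen after seeing the data, the family median was 0.36. Members near 0 that did not pass changed sign: with array weights Rpl3 (0.0531), Rpl3l (0.0132), Rpsa (0.0232) and Rps19bp1 (-0.0569), with cyclic loess Rplp0 (-0.14), Rpl9 (-0.0568) and Rpl23a (-0.11), and with centring Rps19bp1 (-0.0035). Without 1 rat the range was -0.12 to 0.037 for Rpl3, -0.0714 to 0.0699 for Rpl3l, -0.0246 to 0.0378 for Rplp0, -0.0749 to 0.0914 for Rps19bp1, -0.0018 to 0.23 for Rpl36al1 and -0.0637 to 0.0243 for Rpsa. Over the 46 named genes 148 of 689 refitted values lost the threshold, 3 gained it, 21 changed sign and 517 did neither. Only values of the 14 members and 16 list genes that passed in the main fit could lose it, so the share lost among those is larger. The cause of these shifts was not tested. The 4 dim probes allow no reading, and the brightest lie near the top of the signal range.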
